A study of Drosophila melanogaster with 3 samples.

Results

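The 290 tRNA genes of the nuclear genome of Drosophila melanogaster were examined for binding of Lozenge (lz), a transcription factor of the Runx family, at the white prepupa stage. They are all genes of class tRNA in the dm6 Ensembl gene models on chromosomes 2L, 2R, 3L, 3R, 4 and X, out of 18164 genes of all classes there, and 22 mitochondrial tRNA genes were left out. A gene was called when the summit of a peak, its highest point, lay inside it or at most 500 bp from either end. The data are ChIP-seq of whole prepupae of mixed sex from a transgenic line that carries a stable fusion of lz with GFP at the C-terminus, and its sonicated chromatin was precipitated by an anti-GFP antibody. There are 3 biological replicates, all of 1 group and numbered 1 to 3, without any other condition, and peaks were called against 1 control alignment. The authors deposited 30000 calls for each replicate, 30000 for the pooled replicates, and a reproducible set of 8048 summits, here called the thresholded set, which equals the 8048 highest pooled calls.

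tRNA genes are transcribed by RNA polymerase III, which reads a promoter inside the gene made of an A box and a B box. The multisubunit factor TFIIIC binds these boxes and recruits TFIIIB, which places the polymerase at the start, and transcription ends at a run of T in the coding strand. Runx factors act at genes of RNA polymerase II, where lz is known for its roles in crystal cells and in the developing eye. What drives the fusion gene is not given in the labels, and peak lists hold no marker levels by which the label of whole animals could be checked. Whole animals mix all tissues, so few cells with binding and weak binding in many cells cannot be told apart.

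The gene models were checked by sequence. The B box, written GTTCGANNC on the strand of the gene, was found in 160 of 290 genes (55.2%), against 3 of 290 windows of the same length 500 bp upstream (1.03%). With GTTCAANNC allowed as well, a form added after the printed genes had been seen, it was in 271 of 290 genes (93.4%), against 5 such windows (1.72%). At least 4 T in a row stood within 20 bases after 243 genes (83.8%), against 56 windows of 20 bases upstream (19.3%). The genes are 71 to 186 bp long, with a median of 73 bp. Only 52 have a sequence of their own, and the other 238 share one with up to 12 further genes.

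Sequences below are from the RefSeq dm6 genome, on the strand of the gene, with the gene and the 20 bases after it. Capitals mark the B box in the form that allows both letters and, after the gene, a run of at least 4 T. Shown first, since their thresholded summits were the highest of those on chromosomes 2L, 3L, 3R and X, are tRNA:Tyr-GTA-1-8 (chr3R:8669061-8669174, minus strand), tRNA:Gln-TTG-2-1 (chrX:3427432-3427523, minus strand) and tRNA:Lys-TTT-1-1 (chr2L:8290727-8290819, plus strand).
tRNA:Tyr-GTA-1-8: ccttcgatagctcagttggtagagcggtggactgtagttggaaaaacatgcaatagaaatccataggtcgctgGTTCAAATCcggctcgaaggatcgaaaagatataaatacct
tRNA:Gln-TTG-2-1: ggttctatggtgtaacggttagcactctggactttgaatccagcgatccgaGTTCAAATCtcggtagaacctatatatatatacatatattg
tRNA:Lys-TTT-1-1: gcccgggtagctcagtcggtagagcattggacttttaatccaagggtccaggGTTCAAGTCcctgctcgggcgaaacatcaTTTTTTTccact
The bases within 50 bp of their thresholded summits, which lie outside the genes, follow on the plus strand: chr3R:8669336-8669436 for the Tyr gene, chrX:3427676-3427776 for the Gln gene and chr2L:8291007-8291107 for the Lys gene. Their shares of G and C are 30.7%, 35.6% and 38.6%, and the Runx consensus was found in none of the 3.
tRNA:Tyr-GTA-1-8 summit: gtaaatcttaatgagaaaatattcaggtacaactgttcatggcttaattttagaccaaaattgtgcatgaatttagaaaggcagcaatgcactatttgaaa
tRNA:Gln-TTG-2-1 summit: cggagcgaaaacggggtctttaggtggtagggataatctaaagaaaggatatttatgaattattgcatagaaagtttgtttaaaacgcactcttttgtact
tRNA:Lys-TTT-1-1 summit: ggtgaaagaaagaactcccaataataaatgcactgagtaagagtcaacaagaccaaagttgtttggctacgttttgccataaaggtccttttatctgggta
The last 3 are genes whose strongest pooled call is below the threshold and has its summit inside them, again the highest on those chromosomes and chosen after their values were seen: tRNA:Gln-TTG-1-3 (chr3R:26947492-26947583, minus strand), tRNA:Pro-AGG-1-7 (chr3L:13212365-13212456, plus strand) and tRNA:Arg-TCT-3-1 (chr2L:2187007-2187099, plus strand). All 6 printed genes have the form GTTCAANNC, which was added after they had been seen, and none has GTTCGANNC. The run of T is in 4 of the 6.
tRNA:Gln-TTG-1-3: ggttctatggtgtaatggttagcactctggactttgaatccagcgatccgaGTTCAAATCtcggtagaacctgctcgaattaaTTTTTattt
tRNA:Pro-AGG-1-7: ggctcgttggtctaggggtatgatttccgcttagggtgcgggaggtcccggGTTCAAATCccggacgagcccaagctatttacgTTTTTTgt
tRNA:Arg-TCT-3-1: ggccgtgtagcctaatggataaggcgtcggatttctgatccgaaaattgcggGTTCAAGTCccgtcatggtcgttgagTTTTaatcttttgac

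In the thresholded set, 23 of the 290 tRNA genes had a summit within 500 bp, or 7.93% (95% Wilson interval 5.34 to 11.6%). The background was taken from every place on the 6 chromosomes where a span of 73 bp can start, of which 5.95% had a thresholded summit within 500 bp. Among other gene classes the share was 7.06% of 269 snoRNA genes, 28.1% of 32 snRNA genes and 27.0% of 13945 protein-coding genes, measured there around the transcription start sites (TSSs). Cut to the 8048 highest calls of each replicate, 27 tRNA genes (9.31%) were called in replicate 1, 12 (4.14%) in replicate 2 and 23 (7.93%) in replicate 3, against 5.96%, 5.88% and 5.92% of positions. These shares averaged 7.13% ± 2.68 for tRNA genes, against 5.92% ± 0.0409 for positions (SD, n = 3). The difference of 1.21 ± 2.64 percentage points lay within the spread between replicates, with replicate 2 at -1.74 and the highest replicate at 3.35. Thresholded summits, called on all 3 replicates pooled, were also kept only where matched within 100 bp in the 8048 highest calls of 2 replicates. The share was then 3.79% of tRNA genes against 4.41% of positions without replicate 1. It was 6.21% against 4.65% without replicate 2, and 3.79% against 4.36% without replicate 3. The tRNA genes stood below the background only in the 2 comparisons that need a match in replicate 2, so these are not independent.

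The 23 genes took their calls from 17 distinct summits, and 11 of the 23 were still called when any 1 replicate was left out. The strongest, near tRNA:Tyr-GTA-1-8, ranked 129 in replicate 1, 292 in replicate 2 and 225 in replicate 3, and 196 in the pooled list. It lay 212 bp upstream of the gene and 232 bp from a protein-coding TSS, and the gene itself lies in introns of both p and CG8036. The gene tRNA:Gln-TTG-2-1 lies in an intron of CG12535, and its summit ranked 381, 488 and 339 in replicates 1 to 3 and lay 203 bp upstream. For tRNA:Lys-TTT-1-1, in an intron of Btk, which encodes a tyrosine kinase, the ranks were 1147, 998 and 1085, with the summit 258 bp downstream. Both of these lay more than 6 kb from any protein-coding TSS. All 3 summits kept close ranks in the 3 replicates.

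Of the next summits in rank, all 4 lay within 500 bp of a protein-coding TSS. The summit 117 bp upstream of tRNA:His-GTG-1-3 ranked 1192, 1913 and 1514 in the 3 replicates and was 133 bp from the TSS of CG8490. The summit 210 bp downstream of tRNA:Phe-GAA-1-2 ranked 1199, 2695 and 2381 and lay 23 bp from the nearest protein-coding TSS, the gene nearest to this tRNA gene being RpL17, which encodes a ribosomal protein. For tRNA:Val-CAC-2-5, inside an intron of Naam, the ranks were 1662, 3742 and 1664, with the summit 424 bp downstream and 403 bp from a protein-coding TSS. tRNA:Trp-CCA-2-2 and tRNA:Gly-GCC-1-9 shared a summit that ranked 1728 in replicate 1 and 2279 in replicate 3, with no call in replicate 2. That summit was 33 bp from a protein-coding TSS.

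The remaining thresholded summits had pooled ranks from 3634 to 7558. Near tRNA:Pro-AGG-1-2 the ranks were 4249, 2965 and 4131 in replicates 1 to 3, and near tRNA:Leu-TAA-2-1 they were 3190, 4363 and 4334. A summit 89 bp from a protein-coding TSS, by Sema1a, served tRNA:Asp-GTC-1-4 and tRNA:Asp-GTC-1-5. One summit lay within 500 bp of tRNA:Cys-GCA-1-1, tRNA:Cys-GCA-1-2, tRNA:Cys-GCA-1-3 and tRNA:Lys-CTT-1-12, which all lie in introns of Cht7, a chitinase gene. This summit ranked 4870 in replicate 1 and 4891 in replicate 3 but 15001 in replicate 2. The other genes were tRNA:Thr-AGT-1-4 (pooled rank 6264), tRNA:Gly-TCC-2-2 (6675), tRNA:Pro-CGG-2-1 in an intron of Bx (7525), tRNA:Glu-TTC-1-5 (7531), tRNA:Val-CAC-1-1 (7543), and tRNA:Ser-CGA-1-4 with tRNA:Val-AAC-2-1 in an intron of hts (7558). In replicate 3 the call near tRNA:Gly-TCC-2-2 ranked 28694 and lay on the other side of the gene, and that near tRNA:Val-CAC-1-1 ranked 15930. The summit in hts ranked 10149 in replicate 1 and 6774 in replicate 3 and had no call in replicate 2. Just inside the limit of 500 bp were tRNA:Val-CAC-2-5 at 424 bp, tRNA:Asp-GTC-1-4 at 435 bp and tRNA:Gly-TCC-2-2 at 491 bp, and just outside it tRNA:Ile-AAT-1-8 at 518 bp, tRNA:Val-AAC-2-2 at 548 bp and tRNA:Leu-CAA-2-2 at 569 bp.

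**Figure D1:**
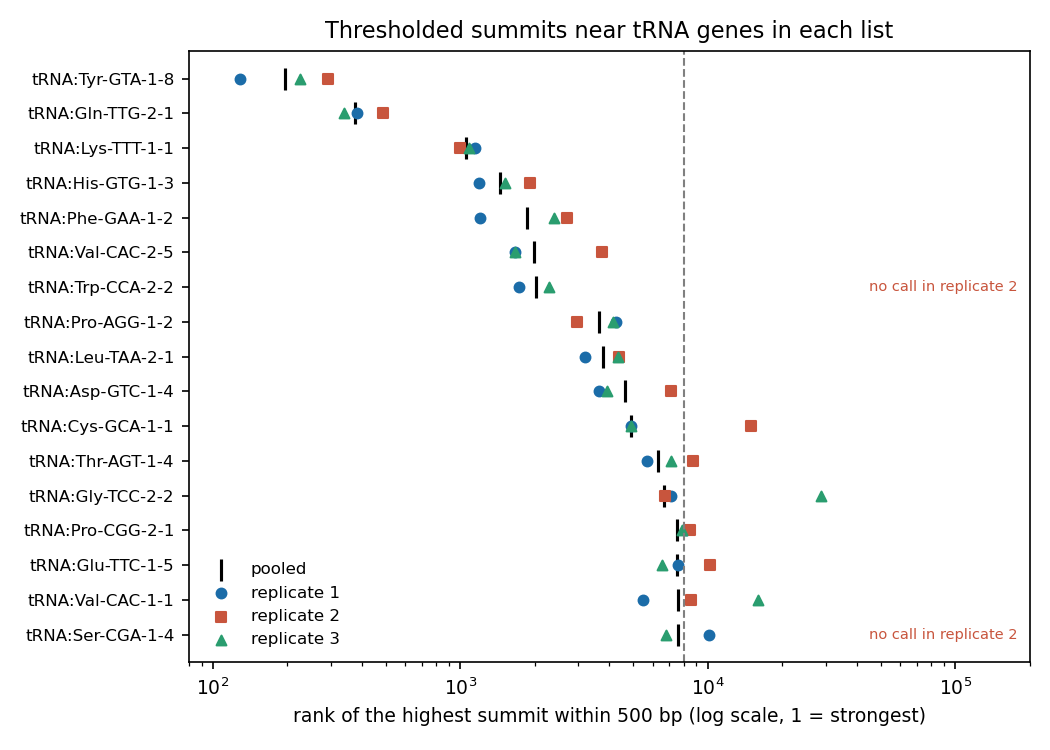
Rank, on a log axis where 1 is the strongest call, of the highest summit within 500 bp of a tRNA gene in the pooled list (black bar) and in each replicate (points), for the 17 thresholded summits, 1 gene named for each; the dashed line is rank 8048. Ranks are close at the top, 2 summits have no call in replicate 2, the Cys-GCA-1-1 summit is at 15001 there, and in replicate 3 the Gly-TCC-2-2 and Val-CAC-1-1 calls are at 28694 and 15930. The Gly-TCC-2-2 point of replicate 3 is a different call, as the match to its thresholded summit there lies beyond 500 bp.

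None of the 290 genes held a thresholded summit inside, where 1.32 would lie at the genome's mean density, so the count of 0 is near background. Of the nearest summits, 12 of the 23 were upstream and 11 downstream, and the median distance was 254 bp. With a limit of 100 bp only 1 gene was called (0.345%), against 1.62% of positions. At 250 bp the shares were 3.79% of tRNA genes and 3.31% of positions, and at 1000 bp 15.9% of tRNA genes and 10.6% of positions. Of the 17 summits, 9 were also within 500 bp of a protein-coding TSS (52.9%, Wilson interval 31.0 to 73.8%), against 39.9% of the whole thresholded set. Among the 257 tRNA genes with no such TSS within 500 bp, 14 had a thresholded summit, or 5.45%, against 4.15% of equally placed positions. Among the 33 genes near a TSS, 9 had one, or 27.3%, against 19.0% of positions near a TSS. Both intervals for tRNA genes, 3.27 to 8.93% and 15.1 to 44.2%, contained their background. They count genes as independent, though the 23 called genes share 17 summits.

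Calls below the threshold gave another picture. In the full pooled list 137 of 290 tRNA genes had a summit within 500 bp (47.2%, Wilson interval 41.6 to 53.0%), against 19.7% of positions, 18.2% of snoRNA genes, 43.8% of the 32 snRNA genes and 48.5% of protein-coding genes at their TSSs. The 21952 calls below the threshold alone reached 124 tRNA genes (42.8%), against 15.2% of positions. In the full replicate lists 144 genes were called in replicate 1 (49.7%), 71 in replicate 2 (24.5%) and 155 in replicate 3 (53.4%), against 19.4%, 20.8% and 19.5% of positions in the same order. Replicates 1 and 3 were high and replicate 2 was close to its background. The mean share was 42.5% ± 15.7 for tRNA genes, against 19.9% ± 0.786 for positions (SD, n = 3). The difference averaged 22.6 ± 16.5 percentage points and ran from 3.66 in replicate 2 to 33.9 in replicate 3, and without replicate 2 it averaged 32.1.

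Replicate 2 also had fewer calls at other genes. Protein-coding TSSs were called in 53.6% of genes in replicate 1, 38.9% in replicate 2 and 51.9% in replicate 3, snoRNA genes in 24.2%, 12.6% and 23.0%, and snRNA genes in 50%, 25% and 46.9%. The snRNA shares were close to those of tRNA genes in replicates 1 and 2 and lower in replicate 3, so neither the high share nor the low value in replicate 2 is shown to be particular to tRNA genes. What sets replicate 2 apart was not tested. For tRNA genes the gap was widest on chromosome 2R, where 59 of 98 genes were called in replicate 1, 8 in replicate 2 and 53 in replicate 3. In replicate 2 that was 8.16% of genes, against 18.4% of positions on 2R. On 2L, by contrast, the 41 genes gave 19 calls in replicate 1, 19 in replicate 2 and 26 in replicate 3. With the genes of 2R left out, 97 of 192 tRNA genes had a pooled call, 30.4 percentage points above positions.

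Counted gene by gene, 40 of the 290 tRNA genes (13.8%) were called in all 3 full replicate lists, against 9.92% of positions. A further 86 genes (29.7%) were called in 2 lists, against 7.35% of positions, and 78 (26.9%) in 1 list, against 15.3%. The other 86 genes had no call in any replicate. Replicates 1 and 3 shared 108 of the genes (37.2%), against 14.0% of positions, and 68 of these had no call in replicate 2. Recovery of the single weak calls was also measured. Of the 98 pooled calls below the threshold near tRNA genes, 54.1% had a summit within 100 bp in replicate 1, 22.4% in replicate 2 and 63.3% in replicate 3, against 59.0%, 43.5% and 58.9% of the other calls below the threshold. In all 3 replicates it was 6 of the 98 (6.12%), against 18.0% of the others. When pooled calls had to be matched within 100 bp in both remaining replicates, the difference between tRNA genes and positions was 3.97 percentage points without replicate 1, 10 without replicate 2 and 1.35 without replicate 3.

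The density of calls near tRNA genes differed by rank. The bases within 500 bp of a tRNA gene make up 0.174% of the 6 chromosomes. They held 17 of the 8048 thresholded summits (0.211%) and 98 of the 21952 pooled calls below the threshold (0.446%), which is 1.21 and 2.56 times their share of bases. By rank in the pooled list the ratio was 1.28 and 1.14 in the 2 bins of thresholded calls, and 1.73, 3.06 and 2.90 in the 3 bins below. Replicate 1 ran 1.28, 1.43, 2.20, 2.59 and 2.67 over the same bins and replicate 3 ran 1.14, 1.28, 2.67, 3.45 and 2.90. In replicate 2 the values were 0.998, 0.570, 1.10, 1.33 and 1.33. Over the full lists the ratio averaged 1.94 ± 0.727 (SD, n = 3), from 1.13 in replicate 2 to 2.52 in replicate 3.

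**Figure D2:**
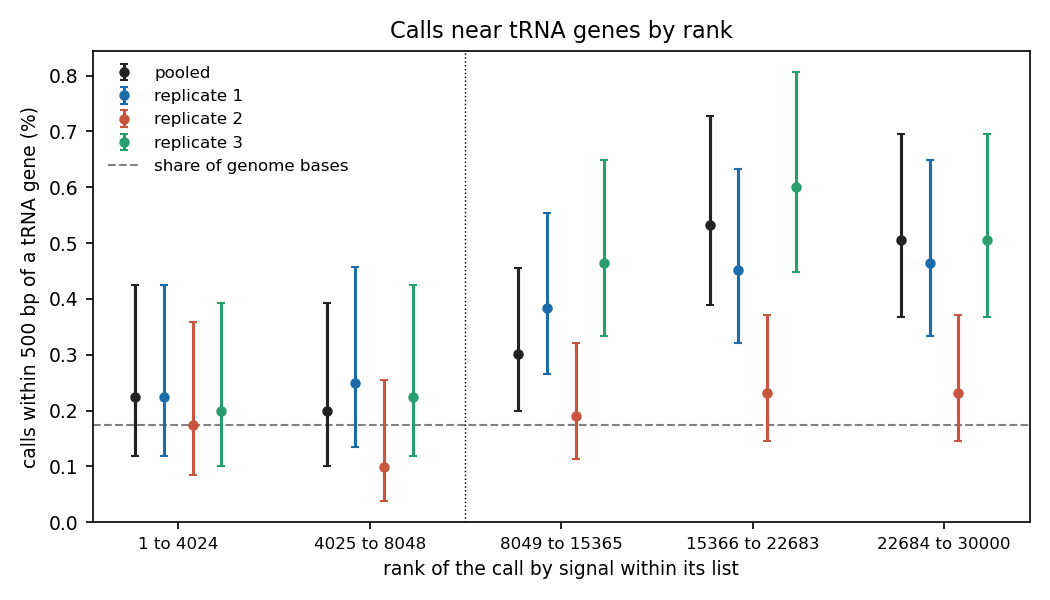
Share of calls (%) within 500 bp of a tRNA gene by rank of the call in its list, for the pooled list and each replicate, with 95% Wilson intervals; the dashed line is the share of genome bases there, 0.174%, and the dotted line the end of the thresholded set. Pooled, replicate 1 and replicate 3 points rise above the line in the 3 bins below the threshold, while replicate 2 reaches 0.232%.

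In the full lists, calls lay in and beside the genes. In the pooled list 22 tRNA genes held a summit inside, 65 had their nearest upstream and 50 downstream, at a median distance of 183 bp. Summits inside genes numbered 22 against 4.94 at the genome's mean density, 4.46 times that density. In replicate 1 there were 23 inside (4.66 times), in replicate 2 there were 7 (1.42 times) and in replicate 3 there were 20 (4.05 times). The density in the 200 bp upstream was 3.23 times the genome mean in replicate 1, 1.15 in replicate 2 and 3.31 in replicate 3. It was still 2.15, 1.85 and 2.00 times at 800 to 1000 bp upstream. A summit in a cluster counts once for each gene it is near. Around the 90 genes with no other tRNA gene close by, where this does not occur, the pooled list had 14 summits within 100 bp, 2.51 times the genome mean, and the replicates had 15 (2.68 times), 7 (1.25 times) and 17 (3.04 times). At 500 to 1000 bp from these 90 genes the density was still 1.69 times the genome mean in the pooled list. In replicates 1 to 3 it was 1.54, 1.54 and 1.49 times there, so replicate 2 was not higher close to the genes.

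Among the genes whose strongest pooled call lay inside them, tRNA:Gln-TTG-1-3 had the highest, at pooled rank 13457, 263 bp from a protein-coding TSS. Its calls ranked 12641 in replicate 1 and 11489 in replicate 3, with none in replicate 2. Those calls lay outside the gene, 103 bp from it in replicate 1 and 16 bp in replicate 3. tRNA:Pro-AGG-1-7 was called in all 3 replicates, at 18861, 17061 and 14175, inside the gene in replicates 1 and 2 and 84 bp upstream in replicate 3. tRNA:Arg-TCT-3-1, whose sequence has no identical copy, ranked 26137, 9639 and 26869. Its call was inside the gene in replicate 2, but 83 bp upstream in replicate 1 and 53 bp downstream in replicate 3. tRNA:Arg-TCG-2-2, in an intron of Mnr, ranked 17254 in replicate 1 and 17659 in replicate 3, with both summits inside the gene and none in replicate 2. These genes were picked by rank after their values were seen.

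**Figure D3:**
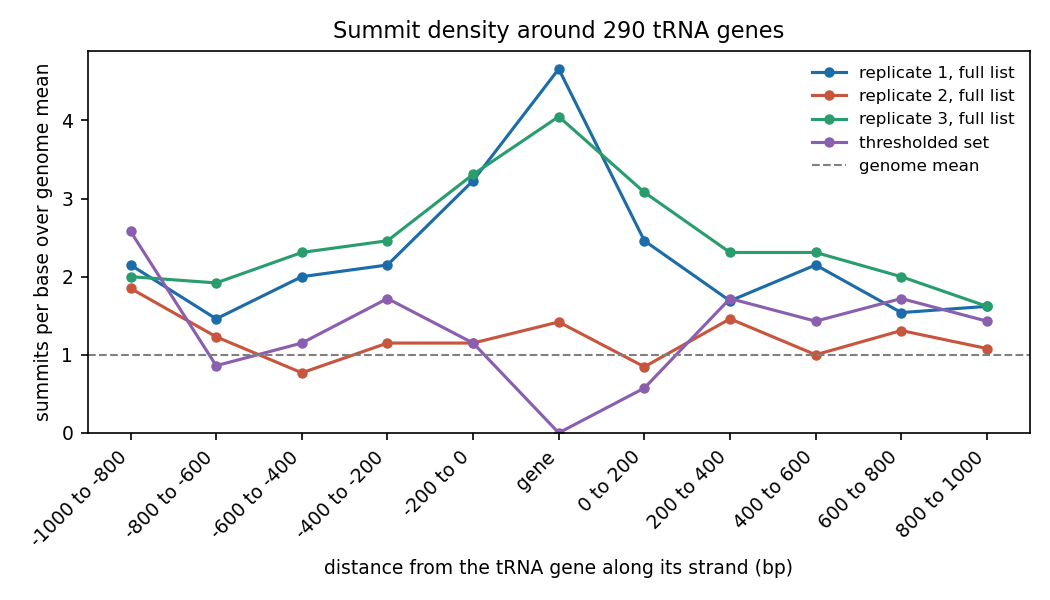
Summits per base relative to the genome mean (dashed line at 1) by distance along the strand of the gene, in bins of 200 bp and inside the gene, over the 290 tRNA genes, for the full list of each replicate and the thresholded set. Replicates 1 and 3 peak inside the gene at 4.66 and 4.05, replicate 2 stands at 1.42 there, and the thresholded set has no summit inside.

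Of the 98 weak calls near tRNA genes, 12 (12.2%, Wilson interval 7.15 to 20.2%) lay within 500 bp of a protein-coding TSS, against 21.5% of all calls below the threshold. Only 33 of the 290 tRNA genes lie that near to such a TSS, so this share depends on where the genes lie. Of the 257 tRNA genes without such a TSS, 117 had a pooled call (45.5%), against 16.7% of positions. In replicates 1 to 3 it was 123, 63 and 133 of the 257, against 15.8%, 19.3% and 16.2% of positions. In introns of protein-coding genes lay 127 tRNA genes, of which 46.5% had a pooled call, against 23.5% of intronic positions. The 156 tRNA genes outside protein-coding genes had 46.8%, against 19.0% of positions there. In replicate 2 the 2 locations differed, with 15.7% of the intronic tRNA genes called, against 24.2% of intronic positions, and 32.1% of those outside genes, against 21.7% of positions. By the number of identical copies, pooled calls were found at 24 of 52 genes with a sequence of their own (46.2%), 31 of 58 (53.4%) with 2 to 4 copies, and 82 of 180 (45.6%) with 5 or more. G and C made up a median 36.9% of the flanks of called genes, 36.7% of the flanks of uncalled genes and 42.2% of the genome.

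tRNA genes often lie in clusters, here taken as genes with gaps of at most 2 kb. The 290 genes form 159 clusters, of which 90 hold 1 gene and 69 hold 2 or more, with 200 genes. A cluster spans more bases than a gene, so each was set against positions of its own span. In the thresholded set 17 of 159 clusters had a summit (10.7%), against 7.75% of such positions. In the pooled list it was 78 (49.1%), against 23.7%. Clusters of 1 gene had 29 of 90 called (32.2%, against 19.6%), clusters of 2 had 23 of 37 (62.2%, against 25%), clusters of 3 had 14 of 17 (82.4%, against 30.5%) and clusters of 4 or more had 12 of 15 (80%, against 37.6%). For clusters of 2 or more the shares were 71.0% in replicate 1, 36.2% in replicate 2 and 78.3% in replicate 3, against 28.7%, 32.3% and 29.0% of positions. Replicates 1 and 3 were again high and replicate 2 was near its background.

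The 3 clusters with most genes are given by count only. Of positions with the spans of clusters of 4 or more, 37.6% had a pooled call. In replicates 1 to 3 it was 36.9%, 42.9% and 37.4%. No call at 1 such cluster is thus near background. On 2R at chr2R:13430282-13432794, 7 genes for Ile and Leu tRNAs had 2 pooled calls, and 3, 0 and 4 calls in replicates 1 to 3. At chr2R:19725620-19728958, 7 genes for Glu and initiator Met tRNAs had 1 thresholded and 3 pooled calls, and 5, 2 and 4 in the replicates. At chrX:14014814-14017284, 7 genes for Arg and Ser tRNAs had no pooled call and 1, 0 and 0 in the replicates. Of the clusters next in size, all 6 genes of the Cys and Lys cluster at chr3L:3095737-3097590 in Cht7 had a pooled call within 500 bp, from 3 pooled calls, and 4 of the 6 Arg and Asn genes at chr3R:8139533-8141042 had one, from 1 pooled call and 0, 2 and 1 calls in the replicates.

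**Figure D4:**
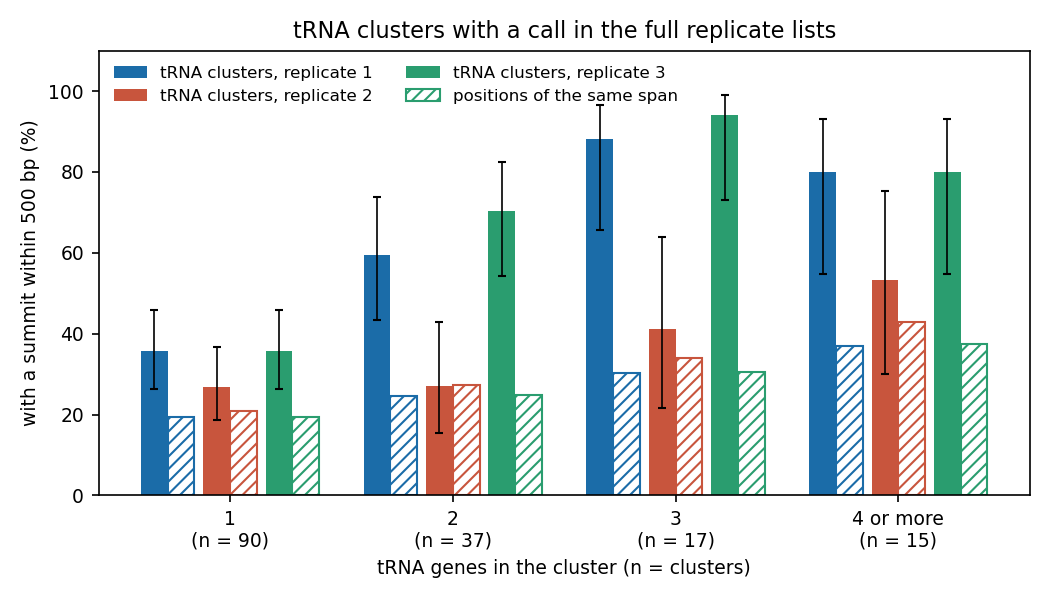
Share (%) of tRNA clusters with a call within 500 bp in the full list of each replicate (filled bars, 95% Wilson intervals), each left of positions of the same span (hatched bars), by number of genes in the cluster. The filled bars of replicates 1 and 3 exceed the hatched ones most for clusters of 3, at 88.2% and 94.1%, while replicate 2 is at 41.2% against 34.0%.

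By amino acid, pooled calls were most frequent at genes for Asp (11 of 14), Cys (5 of 7), Pro (12 of 17) and Ala (11 of 17) tRNAs. None of the 6 genes for elongator Met had one, and 1 of 6 for initiator Met did, against 19.7% of positions, so these low counts are near background. In the replicates elongator Met genes had 0 calls in replicates 1 and 2 and 2 in replicate 3, and initiator Met genes, whose tRNA starts translation, had 0, 1 and 1. The 1 gene for selenocysteine tRNA, tRNA:SeC-TCA-1-1, had no pooled call and a single replicate call, at rank 25772 in replicate 2. Ile genes differed widely between replicates, with 10 of 11 called in replicate 1, 1 in replicate 2 and 7 in replicate 3, while Arg genes had 10, 10 and 11 of 26. Thresholded calls were found for 3 of 15 Val genes and 3 of 7 Cys genes and for none of the Ala, Arg, Asn, Ile, Met, initiator Met or selenocysteine genes. At 5.95% of positions, so few genes give few calls or none, so the zeros are near background. Genes of 1 amino acid share sequences and clusters, so these counts are not independent.

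**Figure D5:**
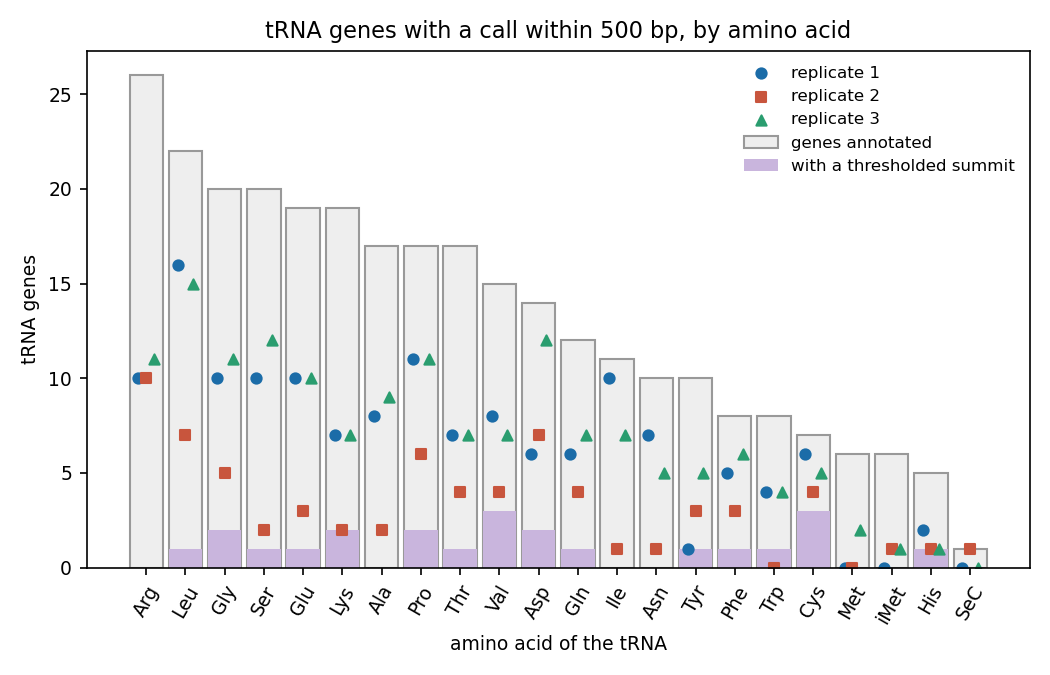
Number of tRNA genes by amino acid: all annotated genes (grey bars), those with a thresholded summit within 500 bp (purple bars) and those with a call in the full list of each replicate (points). Replicate 2 lies below replicates 1 and 3 for most amino acids, with Ile at 10, 1 and 7 of 11 genes, but not for Arg.

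Other genes transcribed by RNA polymerase III are given gene by gene. Of positions of a 73-bp span, 5.95% had a thresholded and 19.7% a pooled summit within 500 bp. In the full lists of replicates 1 to 3 it was 19.4%, 20.8% and 19.5%. Apart from 5S rRNA, these families hold 2 or 3 genes each, so a gene without a call is near background. No 5S rRNA gene, of the 100 so named in the array on 2R (16 distinct sequences, pseudogenes included), had a call in any list. Whether reads can be placed in these near-identical repeats was not tested, and the same holds for tRNA genes with identical copies, so no call there is not a measure of absence. The U6 genes snRNA:U6:96Ab and snRNA:U6:96Ac, whose RNA acts in the spliceosome, shared a thresholded summit at rank 3201 in replicate 1 and 5673 in replicate 3, with none in replicate 2, and snRNA:U6:96Aa had no call. snRNA:7SKa, an RNA that restrains the elongation factor P-TEFb, had a thresholded summit at ranks 4186, 5124 and 3975. snRNA:7SKb and both 7SL genes had no call. RNaseMRP:RNA was called at 4527 in replicate 1 and 8645 in replicate 3, and RNaseP:RNA, the RNA of the enzyme that trims the front of tRNA precursors, at 24304 in replicate 1 only.

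Strong calls were found at protein-coding genes that make the RNA polymerase III machinery or process tRNA. Of 27 such genes, 13 (48.1%) had a thresholded summit within 500 bp of a TSS, against 27.0% of all protein-coding genes. In the highest calls of the replicates it was 16, 11 and 14 of 27, against 29.5%, 23.5% and 26.7% of protein-coding genes. The full pooled list had 19 of 27, against 48.5% of protein-coding genes. In the full lists of replicates 1 to 3 it was 22, 15 and 18 of 27, against 53.6%, 38.9% and 51.9%. The strongest were Bdp1, at ranks 143, 54 and 144, and Brf, at 236, 208 and 277, which encode parts of TFIIIB. Then came CG7099 at 413, 230 and 309 and the polymerase subunit gene Polr3E at 1336, 956 and 1198. Among the other subunit genes were Polr3D (pooled rank 4123), Polr3F (5137) and Polr3G (5431). La, whose product binds the ends of new RNA polymerase III transcripts, was at 3928, RNaseZ, which cuts the back end of tRNA precursors, at 3617, Archease, a partner of the tRNA ligase, at 3224, Pbp95, a part of the factor that binds snRNA promoters, at 3418 and l(2)37Cd at 5528. In replicate 2, Archease and l(2)37Cd had no call and Polr3F ranked 8488, while the other machinery genes named so far were called there. Trf, Polr3C and Polr3K had no call in any list. Thresholded summits were also kept only where matched in the 8048 highest calls of 2 replicates. The count was then 9, 13 and 9 without replicate 1, 2 or 3. These sets hold 5793, 6094 and 5710 summits. The share of all protein-coding genes was not counted for them, so these counts have no background.

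The Runx consensus (AACCACA, with G also allowed in place of its first A and of the A after CC, on either strand) was searched within 50 bp of summits. It was in none of the 17 thresholded windows near tRNA genes (Wilson interval 0 to 18.4%), against 2.68% of all thresholded windows. Below the threshold it was in 2 of 98 (2.04%, interval 0.561 to 7.14%), against 4.58% of all. With these numbers a difference was not detectable. All thresholded windows held the consensus less often than all windows below the threshold. The share expected from base composition alone was not computed, so none of these shares measures enrichment of the consensus. G and C averaged 34.8% ± 6.27 in the windows near tRNA genes, against 33.7% ± 8.70 in all thresholded windows (SD over windows), and 40.4% ± 10.1, against 39.3% ± 10.5, below the threshold.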

How the data were processed

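Per the deposited file lists, the authors called 30000 peaks and background regions on dm6 for each of the 3 replicates and for the pooled replicates, against 1 control alignment, and derived the thresholded set from the irreproducible discovery rate. The signal column is the deposited signal value per peak and was used only to rank calls within a list. The column of summit offsets, as the authors deposited it, is in bases from the peak's start and gives the summit. Which aligner and caller were used is not given in the sources used here. No list holds read numbers, so depth is unknown and intervals (Wilson, 95%) cover counting error only.

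Gene classes, spans and TSSs came from the Ensembl models and sequence from the RefSeq genome, with chromosome lengths checked against the peaks; coordinates are 1-based. The position background is exact, over all starts of a 73-bp span. Calls were matched within 100 bp, and calls highest in a replicate are its top 8048. Chosen to be named were the genes of the 20 highest thresholded summits (17 exist), those with a thresholded summit inside, selenocysteine and initiator Met genes, the 3 largest clusters, the 3 genes either side of the 500 bp limit, and called machinery genes. The 27 machinery genes were matched by symbol, and 1 name (Polr3J) was not matched; those with pooled or replicate calls only are given by count, and 1 called gene is not reported here by name. The members and lists were chosen with earlier results of these data known. No test was run: genes of a cluster share summits, and 1 group gives no contrast, so differences are set against the SD over replicates. Each replicate has its own biological material in the labels. Alternatives covered the distance, the lists, the positions, the TSS window, cluster gaps, identical sequences and each replicate left out. Counting functions were tested on simulated data. Software was matplotlib 3.10.9, scipy 1.17.1, pandas 2.3.3 and numpy 2.4.6 under Python 3.11.15.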

Additional observations from a re-analysis of the deposited data

How the results depend on the processing

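The share of tRNA genes with a thresholded summit (7.93%) was 0.345%, 3.79% and 15.9% with a limit of 100, 250 and 1000 bp, 1.72% (positions 2.53%) where the peak interval had to overlap the gene, 3.45% (positions 3.08%) with the strongest 4024 summits, 47.2% with the full pooled list, and 21.1% where each of the 95 distinct sequences was counted once and as called if any copy was, which has no matching background. Leaving out a replicate gave 3.79 to 6.21%. The mean over replicates (7.13%) was 42.5% with full lists, 3.68% and 14.4% at 250 and 1000 bp, and 6.03 to 8.62% with a replicate left out. With summits matched in 2 replicates, genes without a protein-coding TSS (5.45%) had 2.33 to 3.89%, and clusters (10.7%) had 6.29 to 8.18%. The matched sets hold only 5710 to 6094 summits, and no matching background was counted for these 2 shares. Other TSS windows and cluster gaps moved the 2 shares by less than their intervals.

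Alternatives added after seeing the data concern the excess in the full lists. The pooled difference of 27.6 percentage points was 11 and 20.8 at 100 and 250 bp, 12.6 for the 90 genes alone in their cluster, and 1.35 to 10 when calls had to be matched in both remaining replicates. It was 24 to 28 against positions outside transposable elements, also outside exons, or weighted by chromosome. The replicate mean of 22.6 points was 17.0 to 32.1 with a replicate left out. The machinery count of 13 was 9 to 13, without a matching background. The causes were not tested. Unknown depth limits all shares, and the weakest calls lie in lists that, by their titles, include background regions.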

Other observations

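Most snRNAs serve the spliceosome. Of the 27 snRNA genes other than U6 and 7SK, U6atac and U7 included, 6 had a thresholded summit within 500 bp and 11 had a pooled call, against 5.95% and 19.7% of positions, with 13, 7 and 12 of 27 in the full lists of replicates 1 to 3. snRNA:U5:63BC ranked 2438 in replicate 1 and 4096 in replicate 3, with no call in replicate 2. snRNA:U4:39B ranked 3374, 10677 and 3176 in replicates 1 to 3, and snRNA:U1:95Ca ranked 3384, 6034 and 5706. snRNA:U5:35D, at 6131, 4616 and 5876, lies 479 bp from a protein-coding TSS. The snRNA and tRNA shares were only set side by side for each replicate, and no mean and SD of their difference was computed.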
